A study of Mus musculus with 6 samples.

Results

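Immediate early genes of the Egr, Nr4a and Ier names, with Zfp36, are described here in haematopoietic stem and progenitor cells of mouse marrow. The 10 genes, Egr1, Egr2, Egr3, Nr4a1, Nr4a2, Nr4a3, Ier2, Ier3, Ier5 and Zfp36, were taken by exact symbol from 38926 symbols in the deposited table, and all 10 passed the filter on low values that left 11371 genes for testing. The RNA-seq libraries carry the label wild type (WT, n = 3) or double knockout of Drd2 and Drd3, genes of D2-like dopamine receptors (KO, n = 3). All mice were C57BL/6, aged 8 to 12 weeks and untreated, and the cells were sorted as Lin- Sca1+ cKit+ (LSK) after femurs and tibias were crushed and digested with collagenase IV. The labels do not say whether replicates are separate animals or which cells carry the deletion, so the tests weigh differences against the spread of these libraries, which may be technical.

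Immediate early genes are switched on within minutes of a signal, without new protein synthesis, because the factors that bind their promoters (SRF with its Ets partners, and CREB) are already present and are activated by phosphorylation. Their transcripts are short-lived, and many carry AU-rich elements in the 3′ untranslated region (UTR), to which the zinc finger protein Zfp36 (tristetraprolin) binds and calls in deadenylation. Egr1 and Nr4a1 are known for roles in holding stem cells in quiescence and in the marrow. D2-like receptors couple to Gi and lower cAMP, and cAMP acts through CREB.

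In these libraries 3 of the 10 genes were lower in KO than in WT, Ier3, Nr4a3 and Zfp36, and none was higher (limma on log2(FPKM + 1), Benjamini-Hochberg adjusted p under 0.05 over all genes tested). Over all genes tested, 5.43% were lower by the same rule and 5.48% higher, 10.9% in all. At an unadjusted p under 0.05, 2 of the 10 were higher and 3 lower, beside 13.4% higher and 14.1% lower over all genes tested. Voom on recovered reads called 1 higher and 3 lower, beside 6.68% and 7.08%. Ier3 fell by 50.9% of its WT mean, Nr4a3 by 50.8% and Zfp36 by 33.9%. The other 7, among them the abundant Nr4a1, Nr4a2 and Ier2, did not pass. The median log2 fold change of the 10 was 0.04, beside -0.002 over all genes tested.

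Depth was 5245255 to 7148218 reads per library, recovered from the FPKM values, and 15632 to 16220 genes were above 0. Drd2 was listed at 0 in all 6 libraries, and Drd3 at 0 in the 3 labelled WT and at 1.62, 3.08 and 3.04 FPKM in those labelled KO, so Drd3 goes against the labels and every direction given here is between the libraries as labelled. The libraries labelled KO replicates 1 and 3 lacked the Y-linked transcript Ddx3y, carried Xist at 1.96 and 2.01 FPKM, and held the immunoglobulin gene Igkc at 3182 and 1173 FPKM, whereas the other 4 had Ddx3y at 12.5 to 15.1 FPKM, no Xist, and Igkc at 1.98 to 4.93 FPKM. The LSK markers Kit and Ly6a (Sca1) were at 82.5 to 149.6 and 109.8 to 161 FPKM, while Cd3d and Cd3e, which define T cells, were at most 0.13 and 0.24 FPKM, Cd3g was at 0 in every library, and Cd4 was at 1.05 to 2.42 FPKM. Within the LSK markers, Flt3 and Cd34 fell and Slamf1 and Procr rose in KO. In bulk libraries fewer cells of a type and less RNA per cell cannot be told apart.

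The levels of the 10 genes spanned 3 classes. FPKM is scaled to gene length, so levels can be set beside each other as far as the lengths used hold. No source used here gives those lengths, and GENCODE exon lengths did not match for Nr4a1, Zfp36, Egr3 and Ier5. Nr4a1, a nuclear receptor that needs no known ligand, was at 3862, 3653 and 3314 FPKM in WT replicates 1 to 3 and at 4170, 3613 and 3820 FPKM in KO replicates 1 to 3. It had the highest FPKM of all symbols in each of the 6 libraries and by itself held 0.826 to 1.01% of the summed FPKM. Ier2, a nuclear protein induced by growth factors, followed at rank 15 to 23, and Zfp36 at rank 22 to 77. Then came Nr4a2, Egr1 and Ier3, whose values lay between 115 and 367 FPKM, and Ier5 at 53.3 to 78.1 FPKM. Nr4a3, Egr2 and Egr3 stayed at or below 10.3 FPKM. In WT the ranges of Ier3 and Egr1 overlapped, as did those of Egr1 and Nr4a2 and those of Egr2 and Egr3, so the order within these pairs is not separated by the spread. Thus 5 of the 10 had a mean over 200 FPKM, a level reached by 316 of the 11371 genes tested. Together the 10 genes held 1.48 to 1.77% of the FPKM of a library.

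**Figure D1:**
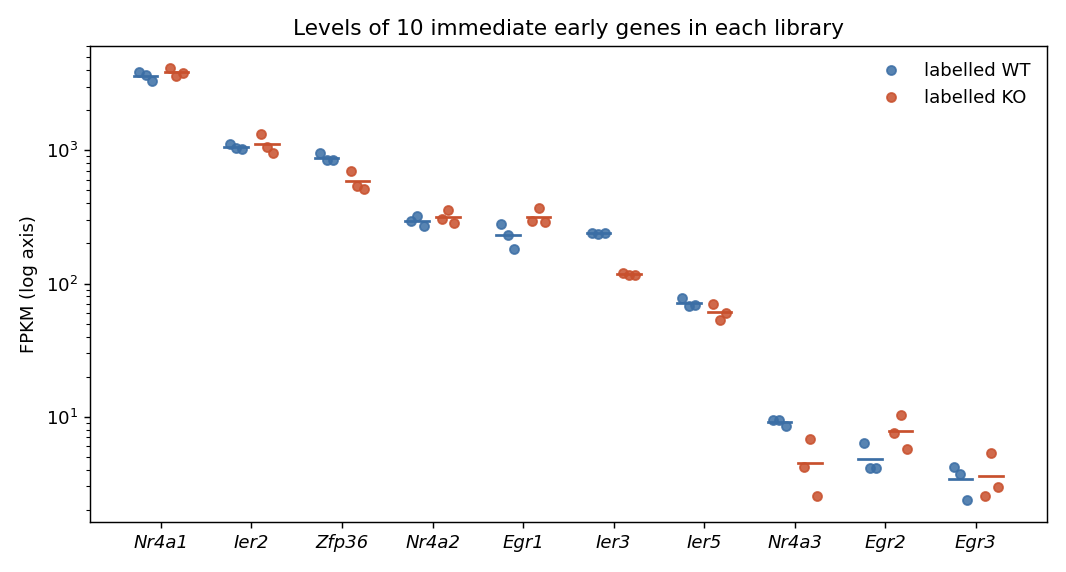
FPKM on a log axis for each of the 10 genes, ordered by mean level; points are the 6 libraries (blue labelled WT, orange labelled KO) and bars are group means (n = 3 each). Nr4a1 lies at 3314 FPKM or more in every library, and the WT and KO points of Ier3, Zfp36 and Nr4a3 do not overlap, with KO below WT.

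Ier3 (chromosome 17, 35821684 to 35822923, plus strand, build GRCm38, which is mm10) encodes a small early response protein that acts on ERK signalling and cell survival. It was at 237.5, 236.8 and 240.3 FPKM in the WT libraries and at 119, 117 and 115 FPKM in the KO libraries. The groups were far apart and each was tight: the mean went from 238 ± 1.86 to 117 ± 2.04 FPKM (SD, n = 3 per group). The log2 fold change was -1.02 ± 0.08 (SE; 95% confidence interval -1.20 to -0.84; limma adjusted p = 0.000204), which placed Ier3 20th by p among the 11371 genes. These values rest on 1570 to 1698 reads per WT library and 706 to 972 per KO library. Counting error alone is then 2.43 to 2.52% in WT, which is more than the coefficient of variation of 0.781% between the WT libraries, so these 3 values lie closer together than reads alone would place them on average. Each KO library by itself was at 0.483 to 0.50 of the WT mean, KO replicate 2 (with Y-linked transcripts) at 0.490. Ier3 passed the test under all 17 alternatives run (log2 fold change -1.042 to -0.996, limma adjusted p 7.44e-05 to 0.00857).

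Zfp36 (chromosome 7, 28376784 to 28380253, minus strand) was at 952, 850 and 843 FPKM in WT and at 704, 536 and 508 FPKM in KO. All KO libraries were below all WT libraries, with KO replicate 1 nearest to WT. The mean went from 881 ± 61.2 to 583 ± 106 FPKM, a log2 fold change of -0.61 ± 0.13 (SE; interval -0.91 to -0.31; limma adjusted p = 0.0212). Leaving out WT replicate 1, 2 or 3 raised limma's adjusted p of Zfp36 to 0.0883, 0.0805 or 0.0663, and leaving out KO replicate 2 raised it to 0.0652, each past the threshold. Its alternatives ranged from 0.00564 to 0.0884. An annotated antisense gene, Gm44710, overlaps 1274 bases of Zfp36, and as strand is not marked, the pair's reads cannot be told apart.

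Nr4a3 (chromosome 4, 48045153 to 48086447, plus strand) encodes the third Nr4a receptor. It was at 9.52, 9.46 and 8.56 FPKM in WT and at 4.19, 6.82 and 2.55 FPKM in KO. The WT libraries were close together and the KO libraries spread, with KO replicate 2 nearest to WT. The mean went from 9.18 ± 0.542 to 4.52 ± 2.15 FPKM, a log2 fold change of -0.96 ± 0.25 (SE; interval -1.53 to -0.38; limma adjusted p = 0.0425). Reads were 320 to 356 in WT and 83 to 282 in KO. The call of Nr4a3 was lost when WT replicate 1, 2 or 3 was left out (limma adjusted p = 0.128, 0.143 and 0.102) and when KO replicate 1 or 3 was (0.105 and 0.0570). Its alternatives ranged from 0.0130 to 0.214. With KO replicate 2 as the only KO library, the log2 fold change was -0.38 (limma adjusted p = 0.214). The part in this result of what sets KO replicates 1 and 3 apart was not tested.

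**Figure D2:**
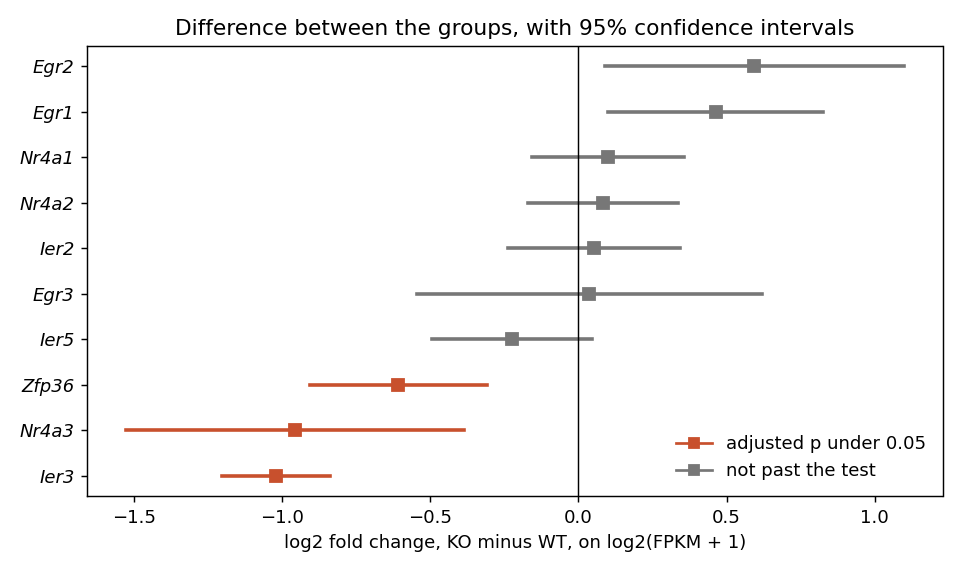
Log2 fold change (KO minus WT, on log2(FPKM + 1)) of each gene with its 95% confidence interval from limma; orange marks adjusted p under 0.05. Ier3 has a narrow interval from -1.20 to -0.84, Nr4a3 a wide one from -1.53 to -0.38.

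The other members of the Nr4a family did not pass. Nr4a2 (chromosome 2, 57106830 to 57124003) was at 295, 322 and 270 FPKM in WT and at 303, 354 and 284 FPKM in KO, and the groups overlapped (log2 fold change 0.08, interval -0.17 to 0.34, limma adjusted p = 0.681). Nr4a1 (chromosome 15, 101254269 to 101274795) had a log2 fold change of 0.10 (interval -0.16 to 0.36, limma adjusted p = 0.618) with 51216 to 74434 reads per library, so counting error was at most 0.442% and the interval is set by the spread between libraries. The ratio of Nr4a1 to Nr4a3 within a library was 386 to 405 in WT and 530 to 1495 in KO. That of Nr4a1 to Nr4a2 was 11.4 to 13.1 in WT and 10.2 to 13.8 in KO.

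The Egr genes encode zinc finger transcription factors with a shared DNA-binding domain. Egr1 (chromosome 18, 34859823 to 34864984) was at 281, 232 and 181 FPKM in WT and at 295, 367 and 287 FPKM in KO. The groups did not overlap, with KO above WT. Such groups were found in 4 of the 10 genes, 3 lower and 1 higher, beside 32.8% of all genes tested (16.6% lower and 16.2% higher). In Egr1 WT replicate 1 lay close to the KO libraries and the gene did not pass (log2 fold change 0.46 ± 0.16 SE, interval 0.10 to 0.83, limma adjusted p = 0.0988). With voom on recovered reads it passed (adjusted p = 0.0354, the lowest of its alternatives, which reached 0.287). Egr2 (chromosome 10, 67535475 to 67542188), known from myelin-forming cells and T cells, was at 6.32, 4.12 and 4.10 FPKM in WT and at 7.59, 10.3 and 5.75 FPKM in KO, with KO replicate 3 inside the WT range (log2 fold change 0.59, interval 0.09 to 1.10, limma adjusted p = 0.122). With limma's library quality weights Egr2 passed (adjusted p = 0.0498, the lowest of its alternatives, which reached 0.318). Egr3 (chromosome 14, 70077203 to 70082614) was at 4.19, 3.73 and 2.37 FPKM in WT and at 2.54, 5.31 and 2.99 FPKM in KO and its groups overlapped (log2 fold change 0.04, interval -0.55 to 0.62, limma adjusted p = 0.945). Its recovered reads, a lower bound of 21 to 52 per library, limit what could be seen. All 3 Egr genes had their highest KO value in KO replicate 2, the KO library that carried Ddx3y, at 1.59, 2.13 and 1.55 of the WT mean for Egr1, Egr2 and Egr3. Nr4a2 and Nr4a3 also had theirs there, and the remaining genes had theirs in KO replicate 1. Across the 6 libraries the log2 levels of Egr1 and Egr2 had a Pearson's r of 0.92, given as a description over libraries that share the group difference.

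Ier2 and Ier5 stood apart from Ier3. Ier2 (chromosome 8, 84661331 to 84662852) was at 1118, 1036 and 1021 FPKM in WT and at 1317, 1059 and 946 FPKM in KO, a KO range that spans the WT range (log2 fold change 0.05, interval -0.24 to 0.34, limma adjusted p = 0.832). Ier5 (chromosome 1, 155096361 to 155099636), a nuclear protein that works with heat shock factor, was at 78.1, 67.7 and 68.9 FPKM in WT and at 70.5, 53.3 and 60.5 FPKM in KO (log2 fold change -0.22, interval -0.49 to 0.05, limma adjusted p = 0.266). Within a library Ier2 was 4.25 to 4.71 times Ier3 in WT and 8.22 to 11.1 times in KO. The ratio of Egr1 to Ier3 was 0.755 to 1.181 in WT and 2.47 to 3.14 in KO. Neither ratio overlapped between the groups, but both are divided by Ier3, itself lower in KO, so this is not a separate result.

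**Figure D3:**
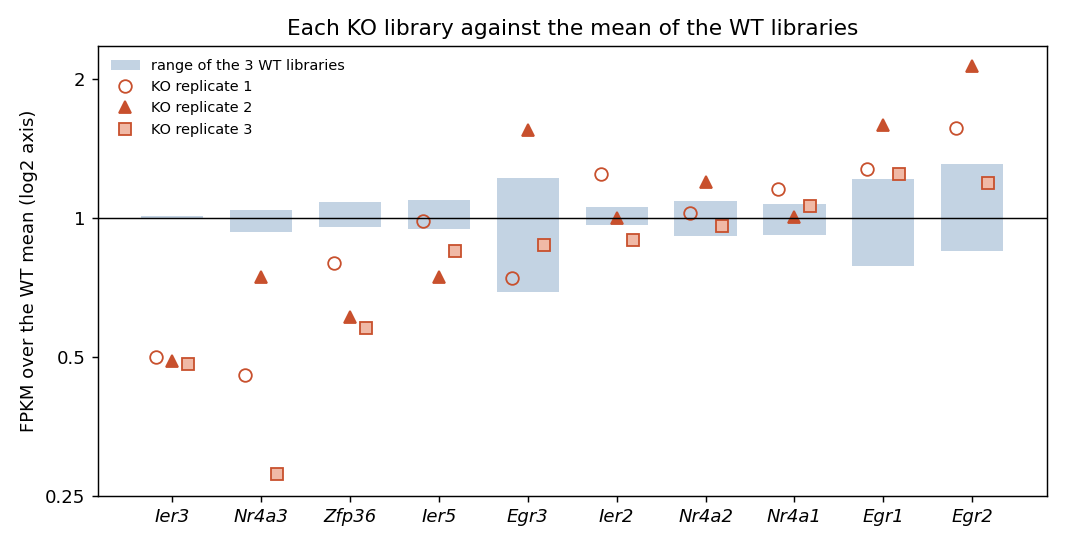
FPKM of each KO library over the mean of the WT libraries (log2 axis), genes ordered by fold change; blue boxes are the range of the 3 WT libraries and symbols are KO replicates 1 to 3. The 3 KO symbols of Ier3 coincide near 0.49, those of Nr4a3 run from 0.278 to 0.742, and KO replicate 2 is the highest symbol for Egr1, Egr2, Egr3, Nr4a2 and Nr4a3.

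The 3′ UTRs of the genes that fell hold the sequence that Zfp36 binds, which is why these sites are shown. The heptamer TATTTAT, in DNA letters, was counted on the transcript strand in the 3′ UTR of the longest coding transcript of each gene in GENCODE M21. Of the 10 genes, Ier3 had 4 in 613 bases, Zfp36 itself 3 in 774 bases, Nr4a3 2 in 3093 bases and Nr4a2 1 in 1326 bases. The other 6, Egr1, Egr2, Egr3, Ier2, Ier5 and Nr4a1, had none. The 3 genes with 2 or more heptamers were thus the 3 that passed the test, a split that depends on counting without regard to length. Per kb of 3′ UTR, Ier3 had 6.53, Zfp36 3.88, Nr4a2 0.754 and Nr4a3 0.647, beside 0.285 over all genes tested with a 3′ UTR. By density Nr4a2, which did not pass, lay above Nr4a3, which did. Whether heptamers bear on the calls was not tested. The sites, 28 bases each with the heptamers in capitals, were read 5′ to 3′ along the transcript (build GRCm38).
Ier3 3′ UTR, chr17:35822486-35822513, plus strand: aattaaTATTTATgTATTTATgtatatc
Ier3 3′ UTR, chr17:35822532-35822559, plus strand: gtgtatgtaaTATTTATtctaacttatg
Ier3 3′ UTR, chr17:35822587-35822614, plus strand: gtaacacagaTATTTATtacgatttata
Zfp36 3′ UTR, chr7:28376959-28376986, minus strand: cttTATTTATgacgacttTATTTATtgt
Zfp36 3′ UTR, chr7:28376926-28376953, minus strand: gattttatagTATTTATatatattgggt
Nr4a3 3′ UTR, chr4:48084755-48084782, plus strand: gctttgcctgTATTTATtgcaagaccac
Nr4a3 3′ UTR, chr4:48084888-48084915, plus strand: gttacatataTATTTATaatgtgtcttt
The first Ier3 stretch and the first Zfp36 stretch each hold 2 heptamers. Of 9807 genes tested with a 3′ UTR, 28.8% had at least 1 heptamer, 9.86% at least 2 and 1.31% at least 4. Without the 10, 5.59% of the 6976 genes with no heptamer were lower in KO and 6.09% higher. With 1 heptamer (1857 genes) 5.98% were lower and 4.42% higher, with 2 (609 genes) 4.60% and 3.61%, with 3 (228 genes) 5.26% and 3.95%, and with 4 or more (127 genes) 7.87% and 3.15%, which is 10 genes lower and 4 higher. The genes lower in that last class include Cxcl2, Ptgs2 and others from the list of Zfp36 targets described below. Its share is thus not separate from the result for that list. The median log2 fold changes from 0 heptamers to 4 or more were 0.01, -0.03, -0.04, -0.10 and -0.06. These are descriptions, with no test between the classes.

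**Figure D4:**
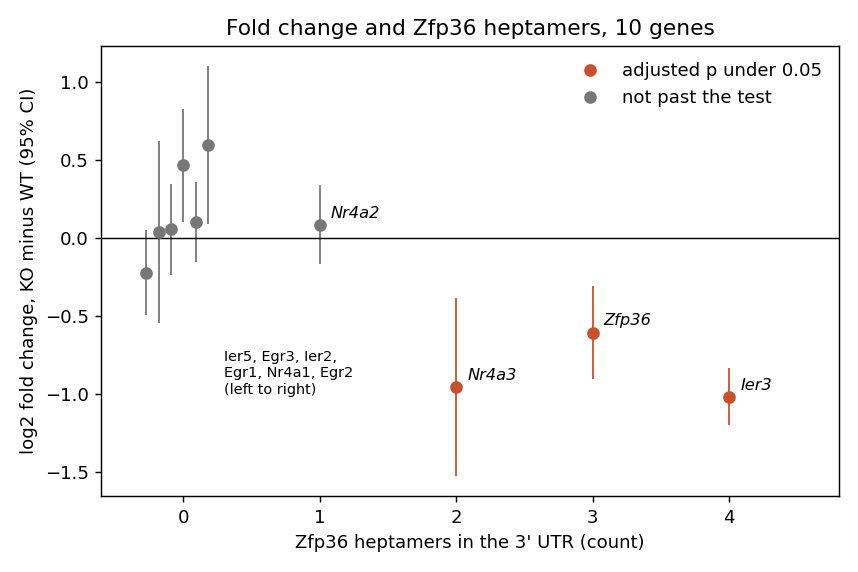
Log2 fold change with its 95% confidence interval against the number of TATTTAT heptamers in the 3′ UTR for the 10 genes; orange marks adjusted p under 0.05, and points at 0 are spread sideways for sight. The 3 genes with 2, 3 and 4 heptamers (Nr4a3, Zfp36 and Ier3) lie below 0.

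Promoter sequence was at hand in the RefSeq table (GRCm38.p6) for 7 of the 10 genes, and the 250 bases before each start were searched on both strands. The core CGTCA of the cAMP response element (CRE), to which CREB binds, was found 4 times in each of the 3 Nr4a promoters, at 233, 213, 69 and 40 bases before the start in Nr4a1, at 200, 144, 123 and 111 in Nr4a2, and at 231, 213, 205 and 147 in Nr4a3. Of the 32851 windows in the table, 17.8% held at least 1 and 0.137% at least 4; windows were not matched for base composition, and a full CRE (TGACGTCA) counts as 2 cores. None of the Nr4a windows held the full CRE, which 1.55% of all windows do. The starts of Ier3, Ier5 and Zfp36 had no core, and 3 of the 5 Egr2 windows, which overlap each other, had 2. The Nr4a stretches are shown with the cores in capitals because all 3 hold them while only Nr4a3 passed the test; each is cut where GENCODE places an exon of the gene, which takes the fourth core of Nr4a3.
Nr4a1, chr15:101266596-101266845, plus strand: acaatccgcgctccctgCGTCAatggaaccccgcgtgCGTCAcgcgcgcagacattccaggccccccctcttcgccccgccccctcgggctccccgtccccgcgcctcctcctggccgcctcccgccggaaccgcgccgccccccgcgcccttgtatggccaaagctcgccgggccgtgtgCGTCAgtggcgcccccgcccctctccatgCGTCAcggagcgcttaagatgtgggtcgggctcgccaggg
Nr4a2, chr2:57124004-57124253, minus strand: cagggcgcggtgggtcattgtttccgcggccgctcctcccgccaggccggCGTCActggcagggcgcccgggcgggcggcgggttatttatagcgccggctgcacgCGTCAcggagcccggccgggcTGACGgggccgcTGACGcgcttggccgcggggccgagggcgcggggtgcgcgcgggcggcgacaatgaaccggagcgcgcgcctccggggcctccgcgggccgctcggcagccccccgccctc
Nr4a3, chr4:48045055-48045152, plus strand: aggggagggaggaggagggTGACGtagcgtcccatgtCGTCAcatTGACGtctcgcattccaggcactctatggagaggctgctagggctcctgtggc
The CArG box, the SRF site, was found in Zfp36 (58 bases before the start) and in 4 of the Egr2 windows, and in 1.47% of all windows. An Egr site (GCGTGGGCG or GCGGGGGCG) was found in Zfp36 and Nr4a1, 105 and 60 bases before the start, and in 3.06% of all windows. The Ets core CCGGAA was in Zfp36, Nr4a1 and 1 Egr2 window (12.0% of all windows), and the AP-1 site TGACTCA in none of the 7 genes (4.46% of all). Among these 7 genes the NF-kB motif was found in Ier3, 92 bases before the start, and in 1 Egr2 window, and in 7.25% of all windows. The Ier3 stretch is shown with that motif in capitals, since Ier3 is the clearest change.
Ier3, chr17:35821463-35821683, plus strand: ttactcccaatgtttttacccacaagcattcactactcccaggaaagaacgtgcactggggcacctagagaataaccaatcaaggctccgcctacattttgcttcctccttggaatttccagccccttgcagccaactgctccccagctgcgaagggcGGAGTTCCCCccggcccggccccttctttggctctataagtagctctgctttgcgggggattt
A match gives letters only and is neither a bound site nor a cause.

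Around these genes, transcripts known as Zfp36 targets were mostly lower in KO. Of 16 listed, 11 were tested, of which 8 fell and none rose (9 and 0 at an unadjusted p under 0.05; 9 and 0 with voom), beside 5.43% lower over all genes tested, with a median log2 fold change of -1.24 (all genes tested, -0.002); Ier3 is among the 8. The largest was the chemokine Cxcl2, which fell from 32.9 ± 3.95 to 4.398 ± 0.728 FPKM (limma adjusted p = 3.53e-05). Ptgs2, an inducible enzyme of prostaglandin synthesis, was lower as well, from 117 ± 11.2 to 35.2 ± 3.51 FPKM in KO. The NF-kB cofactor Nfkbiz, which has no heptamer in its 3′ UTR, fell from 104 ± 17.8 to 27.5 ± 9.15 FPKM. With KO replicate 2 as the only KO library, 8 fell as well. Zfp36 protein is known to shorten the life of these transcripts, and protein was not measured. Most of them are also inflammatory genes induced through NF-kB, and the list was drawn up with earlier results of these data known.

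Of the decay machinery that works with Zfp36, 3 of 22 fell and none rose (6 and 1 at an unadjusted p under 0.05; 4 and 0 with voom). Over all genes tested 5.43% were lower (14.1% unadjusted, 7.08% with voom). The 3 were the RNA-binding decay factor Khsrp (from 21.95 ± 3.31 to 4.77 ± 1.11 FPKM), the kinase Mapkapk2, which phosphorylates Zfp36 (from 100.03 ± 13.6 to 61.6 ± 5.29 FPKM), and the deadenylase subunit Cnot3 (from 10.9 ± 0.894 to 6.35 ± 0.449 FPKM). Without WT replicate 2 and with KO replicate 2 as the only KO library, 1 fell. Of 7 relatives and partners tested, 1 rose, the Egr corepressor Nab2, itself induced by Egr proteins, from 13.2 ± 1.48 to 18.5 ± 1.44 FPKM (limma adjusted p = 0.0461). This call was lost when WT replicate 1, 2 or 3 or KO replicate 1 or 2 was left out, when low values were kept, without a mean-variance trend, with the replicate block, and with KO replicate 2 as the only KO library. Of 10 Egr target genes, 3 rose and 1 fell: Cdkn1a, the cyclin-dependent kinase inhibitor p21, rose by 0.79, Id3 by 0.71 and Nab2 by 0.46, and Tgfb1 fell by 0.50 on the log2 scale. None of the Egr targets rose without WT replicate 1, without WT replicate 3, when low values were kept, or with KO replicate 2 as the only KO library. Of 20 activators of immediate early promoters (SRF, its Ets and Mrtf partners, CREB and its coactivators, and their kinases), none passed limma's test, with a median of -0.08. At an unadjusted p under 0.05, 1 was higher and 2 lower, and voom called 1 lower.

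Of 40 other immediate early genes listed, 39 were tested. Of these 5 rose and 5 fell, beside 5.48% and 5.43% over all genes tested, with a median log2 fold change of 0.03. At an unadjusted p under 0.05, 11 were higher and 11 lower, beside 13.4% and 14.1% over all genes tested. Voom called 7 higher and 7 lower, beside 6.68% and 7.08%. The Krüppel-like factors Klf4 and Klf2 rose, from 24.9 ± 2.25 to 52.4 ± 10.2 and from 48.7 ± 11.9 to 125.6 ± 41.5 FPKM. Csrnp1, a nuclear protein, and the kinase Sik1, a target of cAMP and CREB, fell, from 190 ± 27.8 to 91.3 ± 8.54 and from 24.2 ± 6.54 to 6.34 ± 2.20 FPKM. Without WT replicate 2, 1 rose and 2 fell, and with KO replicate 2 as the only KO library 2 rose and 2 fell.

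**Figure D5:**
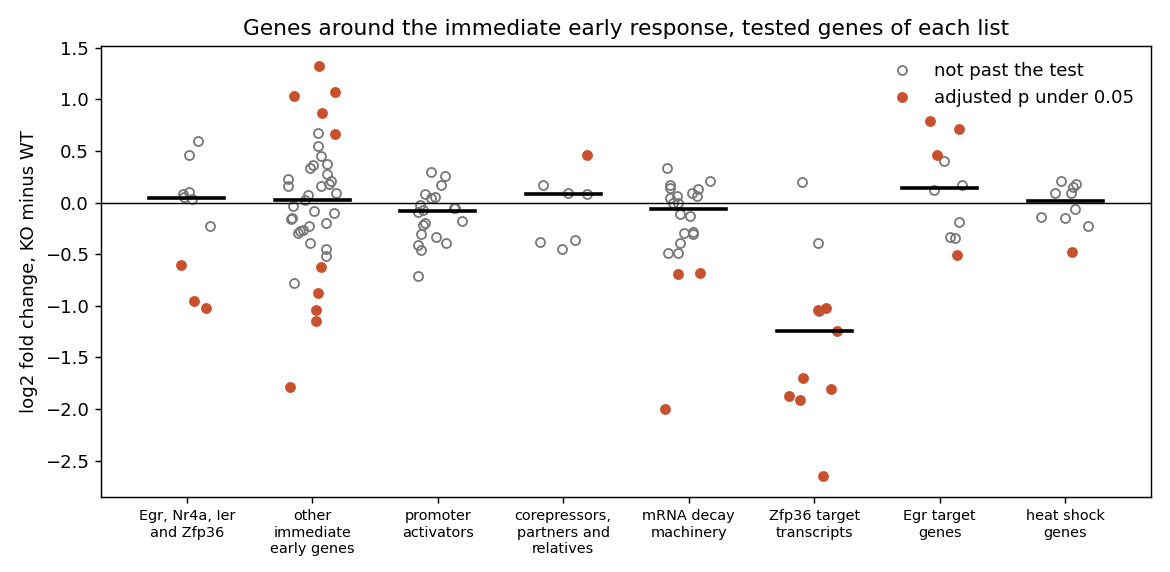
Log2 fold change (KO minus WT) of every tested gene in 8 lists; filled orange points have adjusted p under 0.05, open points do not, and black bars are medians. The Zfp36 targets have a median of -1.24, while the medians of the other 7 lists lie between -0.08 and 0.15.

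Immediate early genes can also be induced while tissue is digested and sorted, and all 6 libraries share 1 described protocol. Of 10 heat shock genes tested, which respond to the same handling, 1 fell (Hspa8, from 558 ± 48.8 to 400 ± 19.7 FPKM) and none rose, with a median of 0.01. Their summed level was 1635 to 1858 FPKM in WT and 1497 to 1697 FPKM in KO. Whether handling set any of these levels was not tested. Summed markers of other cells moved with the groups in part. Neutrophil genes summed to 115 to 238 FPKM in WT and 26.3 to 158 FPKM in KO, with none of 6 tested past limma's adjusted threshold and 4 lower at an unadjusted p under 0.05. Of these 6, 1 was called lower with voom and 5 when KO replicate 1 was left out. Monocyte and macrophage genes summed to 60.4 to 72.6 and 62.6 to 175 FPKM, with the highest sum in KO replicate 3, mostly from Cd14 at 151 FPKM. Of 6 tested, 1 fell (Cd68) and none passed as higher, though their median log2 fold change was 0.49. Genes of B and plasma cells summed to 348 to 369 and 163 to 3617 FPKM (none of 7 called, 3 higher at an unadjusted p under 0.05). The highest of these sums, in KO replicate 1, was mostly Igkc at 3182 FPKM. Erythroid genes summed to 519 to 959 and 992 to 1855 FPKM, groups that do not overlap. Of 6 erythroid genes 1 rose, 5 were higher at an unadjusted p under 0.05, and 3 were called with voom or quantile normalization and 4 with library quality weights, but none when any 1 of the WT replicates or KO replicate 1 or 2 was left out. Mast cell genes summed to 53.1 to 89.7 and 63.0 to 131 FPKM (2 of 6 rose, 3 higher at an unadjusted p under 0.05), and endothelial and stromal genes to 37.3 to 39.3 and 21.4 to 23.3 FPKM (2 of 4 fell). Genes of T and NK cells summed to 354 to 419 and 189 to 293 FPKM, nearly all from Nkg7, which fell. The part of other cells in the fall of Ier3, Nr4a3 and Zfp36 was not tested.

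The 10 genes did not move together over the 6 libraries (Pearson's r from -0.74 for Egr1 and Ier3 to 0.92 for Egr1 and Egr2). The mean of their standardised values thus need not stand for any 1 of them. By that mean, the 4 most alike among the 7718 genes whose mean reached 5 FPKM were Hgsnat, Cd74, D730003I15Rik and 8430408G22Rik (Pearson's r 0.959 to 0.993 over the 6 libraries, as a description). None of these passed the test between the groups (limma adjusted p 0.528 to 0.939).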

How the data were processed

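RNA of sorted LSK cells was made into cDNA with the SMART-Seq v4 kit and into libraries with Nextera XT, per the labels' protocols, which does not mark strand. The authors deposited FPKM values, 1 column per library. Tools listed in the submitters' processing notes, without roles, are DESeq2 (version 1.18.1), HTSeq (version 0.6.1), TopHat2 (version 2.1.1) and bcl2fastq (version 2.19.1.403), with build mm10; no source used here gives the annotation. Whole reads were recovered from exact ratios of FPKM between libraries and GENCODE M21 exon lengths. The length matched in 50.5% of genes above 0 (Egr1, Egr2, Nr4a2, Nr4a3, Ier2 and Ier3 among them); elsewhere reads are lower bounds. Read-based errors cover counting only.

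KO was compared with WT (3 libraries each) in limma 3.58.1 (R 4.3.3) on log2(FPKM + 1), allowing the variance to follow the mean, over genes averaging 1 FPKM or more, two-sided, with Benjamini-Hochberg adjustment and a threshold of 0.05. The added 1 shrinks the fold changes of low genes. The procedure was also run on simulated reads with the same dispersion for every gene in both groups. That setting is simpler than these libraries, so no result here rests on it. Alternatives were the pseudocount, filter, scaling, variance model, replicate block, voom, and leaving out libraries. Named were the 10 genes, up to 4 called genes of each list by smallest p, and the 5 genes most alike; items withheld from these are not reported here. Members and lists were chosen with earlier results of these data known. Tables and figures were made in Python 3.11.15 (pandas 2.3.3, matplotlib 3.10.9, numpy 2.4.6).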

Additional observations from a re-analysis of the deposited data

How the results depend on the processing

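Of the 10 genes, Ier3 kept its call under all 17 alternatives. The number called, 3, was 1 when low values were kept (19373 genes tested) and 1 without a mean-variance trend, and 1 to 2 when each library was left out in turn. Over all genes, 1240 were called, 588 when low values were kept, 514 with KO replicate 2 as the only KO library, which is assumed to vary like the WT libraries, and 370 to 1598 with 1 library left out. With the replicate number as a block 805 were called, and 3 of the 10 genes as before. Same-numbered libraries did not deviate together (Pearson's r of -0.031, 0.045 and -0.12 for replicates 1, 2 and 3). Differently numbered pairs ran from -0.16 to 0.17, a range that holds these values. With 3 libraries per group this measure cannot settle whether the numbers pair libraries. Among genes that did not pass, the sign changed for Egr3 (-0.21 to 0.20 with 1 library left out; -0.15 without WT replicate 3), Nr4a2 (-0.0068 to 0.15; the lowest without KO replicate 2) and Ier2 (-0.018 with quantile normalization, -0.080 to 0.16 with 1 library left out); the cause was not tested. Nr4a1 is the top gene, so quantile normalization gives it equal values in every library. Voom and library quality weights each called 4 of the 10 (1 higher, 3 lower). With KO replicate 2 as the only KO library 2 were called. Depth limits Egr3 most, with counting error of at most 13.9 to 21.8% per library, since its reads are lower bounds.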
